A study of Mus musculus with 18 samples.

Results

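The genes described here encode the vacuolar proton pump (V-ATPase), the lysosome and the core machinery of autophagy. They were chosen by name: every gene whose symbol begins with Atp6v0 or Atp6v1, and 32 listed genes of the lysosome and of autophagy, provided that the gene reached at least 1 TPM in at least 3 libraries. TPM, a transcript count scaled to a fixed total per library, is a gene's share of all transcripts corrected for length, so levels can be set side by side between genes. Of the 25197 genes used, 56 carried a matching name (24 by the pattern, 32 from the list) and 50 reached the minimum (18 and 32). The rule uses names and this minimum and no measured change, but the list was made with earlier results of these data known.

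Lysosomes are acidified compartments in which hydrolases break down lipids, proteins and sugars. The V-ATPase acidifies them: its cytosolic V1 sector hydrolyses ATP and its V0 sector carries protons across the membrane. In autophagy a membrane coated with LC3 and GABARAP proteins encloses cytoplasm or organelles and fuses with lysosomes, and factors of the MiT family (Tfeb, Tfe3 and Mitf) are known to switch on many lysosomal genes. In fat cells lysosomes also take part in lipid breakdown, and removal of mitochondria by autophagy is known from studies of beige fat.

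Polyadenylated RNA was sequenced from 3T3-L1 cells, a mouse fibroblast line that becomes fat cells when induced, in 18 libraries of 6 groups with 3 replicates each. Per the labels' protocols, adipogenesis was started 2 days after confluence by 48 h in medium with serum, 10 µg/mL insulin, 0.25 µM dexamethasone (a glucocorticoid) and 0.5 mM IBMX (a phosphodiesterase inhibitor), followed by 5 µg/mL insulin with medium changed every 2 days. The groups are Control, MCE1, MCE2, Day4, Day6 and Day8, and for MCE1 and MCE2 the labels give neither an hour nor the words behind the abbreviation, and for Control no state of confluence. All groups share the 1 cell line, and nothing in the labels tells whether the replicates of a group came from different cultures. P-values therefore measure the spread between these samples, which may be technical. Read depth is unknown, since TPM keep none.

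As a sum, fat cell markers stood far above Control from MCE2 on, while most macrophage markers were under the minimum. The 10 fat cell markers examined (Adipoq, Plin1, Fabp4 and others), all tested, summed to 154 to 169 TPM in Control libraries, 655 to 738 in MCE1, 3569 to 3909 in MCE2, 19039.5 to 20084 at Day4, 32733 to 35079 at Day6 and 29167 to 32435 at Day8. Not every one of them followed the sum. Pparg averaged 38.6 TPM in MCE2, 32.2 at Day4 and 88.2 ± 83.1 at Day8, against 31.5 TPM in Control. Lep averaged 0.0309 TPM in MCE2 and 0.0981 TPM at Day4. Macrophages are rich in lysosomes. Of 14 macrophage markers 13 were listed, 5 reached the minimum and 4 (Ptprc, Adgre1, Itgam and Tyrobp) stood at 0 in all 18 libraries. Summed macrophage markers came to 8.04 to 11.1 TPM in MCE1 and 10.9 to 11.9 TPM at Day8, against 18.5 to 21.5 TPM in Control. The fibroblast markers were split. The 10 examined, 9 tested, summed to 10280.3 to 15119 TPM at Day8, against 5361 to 5661 TPM in Control. Most of that sum came from Col1a1, Col1a2 and Col3a1, with means of 2681, 4226 and 4831 TPM at Day8, against 1235, 2166 and 453 TPM in Control. Pdgfra also had a higher mean at Day8 (105 ± 14.4 against 65.4 ± 18.7 TPM). Dlk1 averaged 6.54 TPM at Day4 and 27.7 ± 19.9 TPM at Day8, against 22.6 ± 9.71 TPM in Control. Its Day8 difference thus lay within the spread. Lower means at Day8 were those of Acta2 (15.6 against 996 TPM), Thy1 (131 against 302), Ly6a (48.8 against 145), Pdgfrb (47.6 against 87.1) and Postn. In bulk RNA, fewer cells of a type and less RNA per cell cannot be told apart.

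Many known binding sites of the MiT factors, but not all, hold the letters CACGTG, often with T before and A after them. Promoters of members are therefore shown with these letters marked. Among the 50, 38 had a promoter in the RefSeq table of the GRCm38.p6 build, each a window of 300 bases with 250 before and 50 after the annotated start. Each motif reads the same on both strands, and each longer one contains the shorter. CACGTG stood in 13 of the 38 windows (34.21%), against 8.09% of the 27025 genes with a window. TCACGTGA stood in 7 of 38 (18.42%), against 1.12% of all genes, and TCACGTGA with a further G before and C after it in 0 of 38, against 0.37% of all genes. These shares describe the letters in the windows and not binding by any factor. Here all genes means the 27025 with a window, whether or not they reached the TPM minimum, which all 38 members did. The part of expression in the differing shares was not tested. The 7 genes with TCACGTGA include 3 pump subunits, 3 hydrolases and the lysosomal channel gene Mcoln1. They are printed 5′ to 3′ around 1 match each, with that match in capitals.
Atp6v0d1, chr8:105566035-105566094, - strand: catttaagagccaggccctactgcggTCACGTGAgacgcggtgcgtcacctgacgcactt
Atp6v0e, chr17:26676372-26676431, + strand: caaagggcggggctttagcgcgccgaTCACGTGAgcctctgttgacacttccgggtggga
Atp6v1a, chr16:44139358-44139417, - strand: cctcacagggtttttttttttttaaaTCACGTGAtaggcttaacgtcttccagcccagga
Ctsa, chr2:164833734-164833793, + strand: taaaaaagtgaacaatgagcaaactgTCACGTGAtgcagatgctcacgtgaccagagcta
Ctsd, chr7:142387893-142387952, - strand: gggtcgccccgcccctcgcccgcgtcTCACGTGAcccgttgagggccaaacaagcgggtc
Gla, chrX:134601167-134601226, - strand: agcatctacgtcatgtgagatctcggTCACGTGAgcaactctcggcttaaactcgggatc
Mcoln1, chr8:3500447-3500506, + strand: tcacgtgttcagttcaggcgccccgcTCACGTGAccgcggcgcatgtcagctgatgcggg

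Ctsa held a further match, which stands in lower case in the stretch printed above. Gla held a further match as well. Lamp1, the most abundant member in Control, had no TCACGTGA but 4 copies of CACGTG, 61, 45, 28 and 15 bases before its start, and Bnip3, the gene with the largest rise, had 1 copy 108 bases before its start. Both promoters are printed whole with CACGTG in capitals.
Lamp1, chr8:13158911-13159210, + strand: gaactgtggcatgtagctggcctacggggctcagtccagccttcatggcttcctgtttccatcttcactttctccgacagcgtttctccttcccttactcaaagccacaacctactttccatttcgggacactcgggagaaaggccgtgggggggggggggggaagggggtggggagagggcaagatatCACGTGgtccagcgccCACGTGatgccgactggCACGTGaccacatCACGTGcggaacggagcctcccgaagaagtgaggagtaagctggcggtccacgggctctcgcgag
Bnip3, chr7:138909457-138909756, - strand: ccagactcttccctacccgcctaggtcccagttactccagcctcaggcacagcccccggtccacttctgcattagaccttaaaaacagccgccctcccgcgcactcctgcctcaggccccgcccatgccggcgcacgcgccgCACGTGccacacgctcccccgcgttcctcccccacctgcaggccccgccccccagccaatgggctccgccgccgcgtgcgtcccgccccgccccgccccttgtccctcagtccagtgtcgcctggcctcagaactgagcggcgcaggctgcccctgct
Directions of change were mixed among genes with and without the letters. Of the 13 genes with CACGTG, 7 rose and 4 fell at Day8 relative to Control, and of the 25 with a window and no CACGTG 15 rose and 6 fell. In MCE1 2 of the 13 rose and 7 fell, against 4 and 13 of the 25. Of the 7 genes with TCACGTGA, 5 rose and 1 fell at Day8. Of the 31 with a window and no TCACGTGA, which include Lamp1 and Bnip3, 17 rose and 9 fell. In MCE1 1 of the 7 rose and 3 fell, against 5 and 17 of the 31. Of all genes tested, 31.7% rose and 39.7% fell at Day8 and 22.0% rose and 29.4% fell in MCE1. Lamp1 fell and Bnip3 rose in both comparisons.

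More members fell than rose in MCE1, and more rose than fell at Day8. In MCE1, 9 of 50 rose and 26 fell relative to Control, while among the 12695 genes tested 22.0% rose and 29.4% fell. The median log2 fold change of the 50 was -0.27, against -0.06 for all genes. At Day8, 28 of 50 rose and 11 fell relative to Control, with 31.7% of all genes higher and 39.7% lower, and medians of 0.30 for the members and -0.11 for all genes. A gene is said to rise or fall, or to be called, where limma, fitted on log2(TPM + 1) over all 18 libraries, gave a Benjamini-Hochberg adjusted p under 0.05. The pseudocount makes fold changes of low genes smaller than the ratio of their TPM.

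The groups in between held intermediate counts. In MCE2, 11 of 50 rose and 20 fell (22% and 40%), close to the shares of all genes (23.4% and 39.1%). With median-ratio scaling of the libraries 14 rose and 11 fell, so the balance of directions in MCE2 depends on the scaling. At Day4, 24 of 50 rose and 11 fell (29.7% and 39.3% of all genes). At Day6, 25 of 50 rose and 13 fell (30.2% and 39.4%), and with median-ratio scaling 27 rose and 7 fell. The falls at Day8 likewise came to 7 with that scaling. All 5 comparisons share the 3 Control libraries. Under that scaling the all-gene median moved up by 0.17 in MCE2, 0.13 at Day4 and Day6 and 0.11 at Day8 on the log2 scale, and the share of higher genes among all calls went to 54.1% in MCE1, against 42.9% without it, and to 50% in MCE2, against 37.4%.

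Step by step, the most rises came between MCE2 and Day4. There 27 of 50 rose and 2 fell, against 29.6% and 22.0% of all genes. Both that fell, Atp6v0c and Atp6v0e, encode V0 subunits. In MCE2 against MCE1, 16 of 50 rose and 5 fell (17.7% and 25.2% of all genes). In Day6 against Day4, 10 of 50 rose and 8 fell (14.5% and 11.2%), and in Day8 against Day6, 14 of 50 rose and 1 fell (10.1% and 11.6%). The 1 that fell in the last step was Ctsk. Over all 6 groups the limma F test called 45 of 50 members (90%), against 87.6% of all genes, and the 5 not called were Atp6v0a2, Atp6v1g2, Tfe3, Atg7 and Atg16l1.

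In either direction, 35 members were called in MCE1, 31 in MCE2, 35 at Day4, 38 at Day6 and 39 at Day8 against Control, beside 51.4%, 62.5%, 69.0%, 69.7% and 71.4% of all genes. The successive steps held 21, 29, 18 and 15, beside 42.8%, 51.6%, 25.7% and 21.7%. Large changes were fewer. With a log2 fold change of 1 or more in size as a further condition, 3 members remained in MCE1 (Atp6v0a4, Sqstm1 and Bnip3), 5 in MCE2, 7 at Day4, 9 at Day6 and 12 at Day8, beside 13.6%, 20.4%, 27.3%, 29.5% and 32.4% of all genes. The 12 at Day8 were Atp6v0a4, which fell, and Atp6v0e2, Cd63, Lipa, Neu1, Ctsz, Ctsa, Tfeb, Bnip3, Bnip3l, Ulk1 and Map1lc3a, which rose. Atp6v0a4 is in all 5 of these counts, and its lower values follow from the minimum, which only Control libraries reached. In the successive steps that condition left 1, 2, 1 and 1, beside 7.64%, 10.9%, 2.90% and 1.61% of all genes. Some calls depended on the processing. Of the 35 calls in MCE1, 9 were lost under another scaling or other alternative (Atg5, Atp6v0a1, Atp6v1h, Hexa, Lipa, Map1lc3a, Mitf, Psap and Wipi1), which leaves 8 higher and 18 lower. Of the 39 calls at Day8, 7 were lost (Atp6v0c, Atp6v0d1, Atp6v1a, Atp6v1g2, Ctsb, Map1lc3b and Wipi1), which leaves 25 higher and 7 lower.

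**Figure D1:**
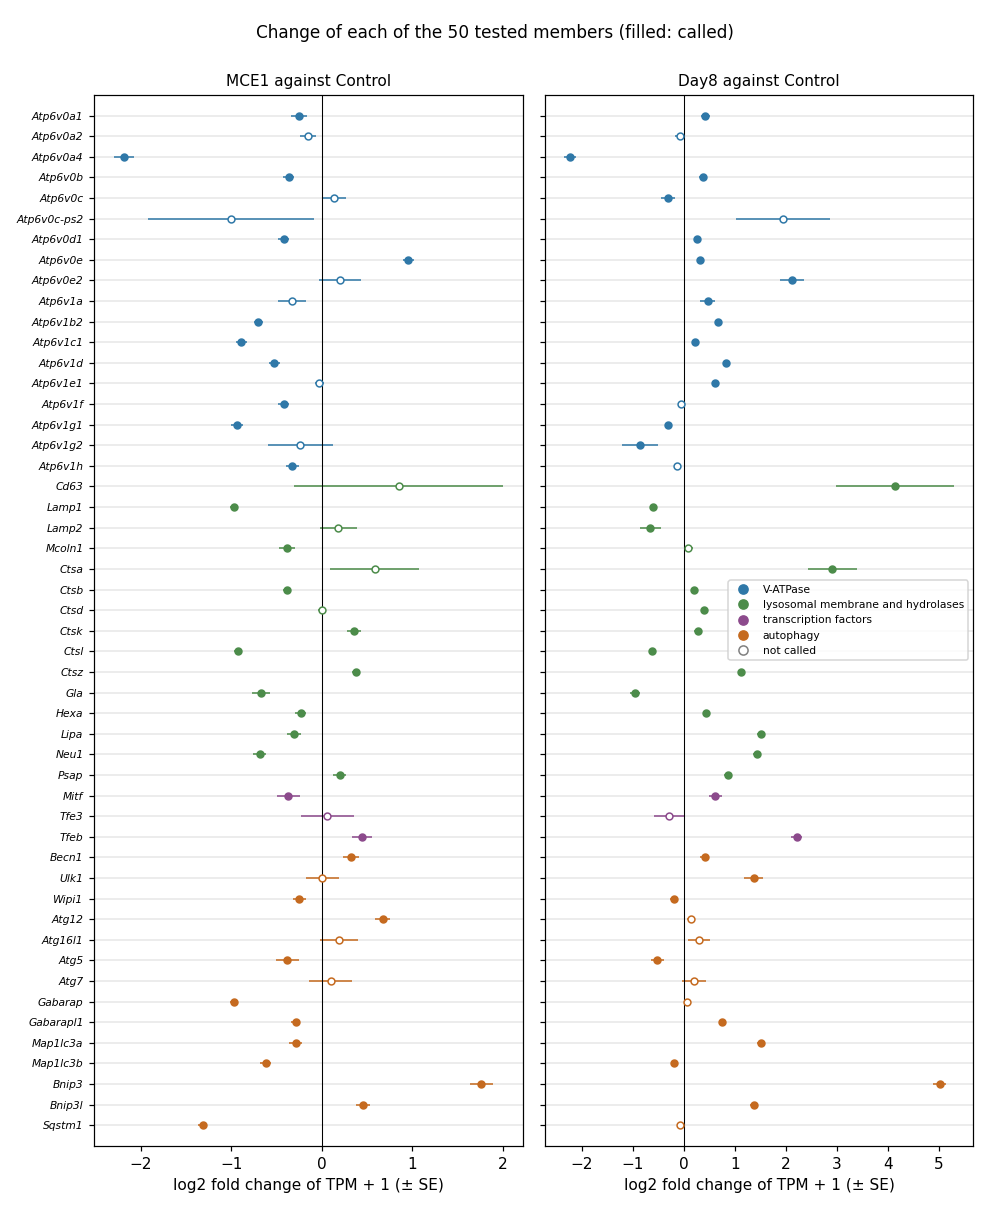
Log2 fold change of TPM + 1 of each of the 50 tested members (horizontal axis, bars ± SE), MCE1 against Control on the left and Day8 against Control on the right, with genes down the page by role. Filled points passed an adjusted p under 0.05. Most V-ATPase and LC3 points lie left of 0 in MCE1, and Bnip3 lies farthest right at Day8 (5.02).

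More genes of the V-ATPase fell than rose in MCE1, and by Day8 more stood above Control than below. Of the 18 tested, 1 rose and 10 fell in MCE1 (median log2 fold change -0.35), and 10 rose and 4 fell at Day8 (median 0.28), beside 22.0% and 29.4% of all genes in MCE1 and 31.7% and 39.7% at Day8. The falls include Atp6v0a4 in each comparison with Control. In between, 4 rose and 6 fell in MCE2 (23.4% and 39.1% of all genes), 9 and 4 at Day4 (29.7% and 39.3%) and 8 and 5 at Day6 (30.2% and 39.4%). Of the 9 V0 genes, 1 rose and 4 fell in MCE1 (median -0.25), and of the 9 V1 genes 0 rose and 6 fell (median -0.42). At Day8 5 of the V0 genes rose and 2 fell. V1 subunits summed to 979 ± 36.2 TPM in MCE1 and 1598 ± 25.0 TPM at Day8, against 1392 ± 37.3 TPM in Control (SD, n = 3 each). The 9 V0 genes summed to 1173 ± 9.95 TPM in MCE1, 1542 ± 48.5 TPM in MCE2 and 1242 ± 37.4 TPM at Day8, against 1039.8 ± 21.7 TPM in Control. They include Atp6v0c-ps2, by its symbol a pseudogene, which averaged 96.3 ± 75.5 TPM at Day8, against 15.7 ± 5.25 TPM in Control. Atp6v0c-ps2 is also among the 9 rises at Day4. Atp6v0e alone averaged 471 TPM in MCE1, against 242 TPM in Control, a larger difference than that of the V0 sum. These sums carry no test.

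In the V0 sector, Atp6v0e, the gene of a small membrane subunit, was the only one of the 18 to rise in MCE1. It had 469, 474 and 469 TPM in MCE1 and 625, 591 and 613 TPM in MCE2, against 229, 248 and 248 TPM in Control. The groups did not overlap, and every MCE2 library was also above every MCE1 library. The log2 fold change was 0.96, SE 0.0584, adjusted p = 1.05e-09 in MCE1 and 1.33, SE 0.0584, adjusted p = 1.12e-11 in MCE2. It then declined, with means of 403 TPM at Day4, 334 at Day6 and 302 at Day8, and was still higher than Control at Day8 by 0.32 on the log2 scale. Its relative Atp6v0e2 was rare and rose late: it had 9.59, 8.40 and 6.23 TPM at Day8, against 1.41, 0.752 and 1.09 TPM in Control, without overlap (log2 fold change 2.12, SE 0.232, adjusted p = 5.37e-07). Per transcript Atp6v0e2 remained far below Atp6v0e, at a ratio of 0.0355, 0.0279 and 0.0186 at Day8, against 0.00615, 0.00304 and 0.00438 in Control.

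The a subunit, which forms the proton channels and directs the pump to its membrane, is encoded by alternative genes. Atp6v0a1 averaged 50.4 ± 6.89 TPM at Day8, against 37.2 ± 1.37 TPM in Control (SD, n = 3 each; log2 fold change 0.42, adjusted p = 0.000619). Atp6v0a2 averaged 43.5 ± 4.98 TPM at Day8 and 46.0 ± 2.00 TPM in Control and was called in none of the 9 comparisons. Atp6v0a4, known for its role in kidney, had 3.97, 3.96 and 3.24 TPM in Control and at most 0.155 TPM in each of the 15 later libraries, 4 of them at 0 (log2 fold change -2.19 in MCE1 and -2.23 at Day8). It therefore reached the minimum through the 3 Control libraries alone, so its lower values elsewhere were fixed by that minimum. The remaining a gene, Tcirg1, lies outside the name pattern and is given with the neighbouring genes.

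Atp6v0b and Atp6v0c encode the proteolipids of the rotating ring, and Atp6v0d1 the subunit that joins ring and rotor. Atp6v0b had 154, 151 and 153 TPM in MCE1 and 267, 239.6 and 255 TPM at Day8, against 183, 197 and 212 TPM in Control, so MCE1 lay below and Day8 above every Control library (log2 fold changes -0.36 and 0.36). Atp6v0d1 peaked at Day4, with 325, 330.0 and 319 TPM against 202, 224 and 236 TPM in Control (log2 fold change 0.56, SE 0.0621, adjusted p = 7.37e-07). At Day8 its difference was 0.25, which was no longer called with quantile normalization (0.15). Atp6v0c had 378, 376 and 386 TPM in MCE2, against 290.4, 276 and 263 TPM in Control (log2 fold change 0.46), and 214, 271 and 191 TPM at Day8, which overlapped Control.

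The later values of Atp6v0c cannot be separated from those of Atp6v0c-ps2, which the files list on the same stretch of chromosome 17 (mm9, 24300832 to 24306395 and 24300832 to 24306340), covering 99.0% of the span of Atp6v0c. Atp6v0c-ps2 had 156, 11.4 and 122 TPM at Day8 and 87.2, 149 and 30.5 TPM at Day4, against 21.7, 13.5 and 11.8 TPM in Control. At Day8 the library with the lowest Atp6v0c-ps2 had the highest Atp6v0c. Summed, the pair had 369.8, 283 and 312 TPM at Day8, against 312, 289.7 and 275 TPM in Control. The call of Atp6v0c at Day8 (-0.31) turned to 0.13 with adjusted p = 0.234 for the sum, an alternative chosen after seeing the data. The call was also lost with median-ratio scaling (-0.18) and without any 1 of Control replicate 1, Control replicate 2, Control replicate 3, Day8 replicate 1 and Day8 replicate 3 (-0.27, -0.31, -0.34, -0.28, -0.20 in that order), and the call of Atp6v0c-ps2 at Day4 (2.21) was lost without any 1 of 5 libraries (2.45, 2.13, 2.04, 2.09, 1.70 without Control replicate 1, Control replicate 2, Control replicate 3, Day4 replicate 1 and Day4 replicate 2).

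Of the V1 sector, none of 9 rose in MCE1 and 6 fell, and at Day8 5 rose and 2 fell. Beside these stand 22.0% and 29.4% of all genes in MCE1 and 31.7% and 39.7% at Day8. Atp6v1a and Atp6v1b2 encode the A and B subunits of the ATP-splitting head. Atp6v1b2 had 93.2, 93.7 and 93.2 TPM in MCE1 and 254, 244 and 227 TPM at Day8, against 145, 154 and 158 TPM in Control, with no overlap in either direction (log2 fold change -0.70, SE 0.0499, adjusted p = 7.01e-09 in MCE1 and 0.66, SE 0.0499, adjusted p = 5.89e-09 at Day8). Atp6v1a spread more: 79.5, 105 and 73.1 TPM at Day8, against 70.7, 52.8 and 61.5 TPM in Control (log2 fold change 0.46, adjusted p = 0.0146). That call was lost without Control replicate 2 (0.36) or Day8 replicate 2 (0.31).

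Atp6v1d and Atp6v1f encode parts of the central shaft. Atp6v1d had 46.1, 50.9 and 50.5 TPM in MCE1 and 138, 129 and 115 TPM at Day8, against 66.5, 73.2 and 73.3 TPM in Control (log2 fold change -0.52, SE 0.0642, adjusted p = 4.36e-06 in MCE1 and 0.83, SE 0.0642, adjusted p = 7.68e-09 at Day8), and again the 3 groups did not overlap. Atp6v1f fell in MCE1 (-0.42) and was not called at Day8, with 339 ± 13.2 TPM against 352 ± 15.7 TPM in Control. The peripheral stalks, built from E and G subunits, were uneven. Atp6v1e1 averaged 210.4 ± 9.83 TPM in MCE1, where it was not called, and had 353, 311 and 318 TPM at Day8, against 205, 222 and 217 TPM in Control (log2 fold change 0.61, SE 0.0507, adjusted p = 2.11e-08). Atp6v1g1 had 174, 175 and 179 TPM in MCE1 and 245, 284 and 284 TPM at Day8, against 322, 344 and 346 TPM in Control, so every later library given here lay below every Control library (log2 fold change -0.94, SE 0.0613, adjusted p = 2.55e-09 in MCE1 and -0.32, SE 0.0613, adjusted p = 0.000219 at Day8). Atp6v1c1, whose product is released when V1 leaves the membrane, fell to 47.1 ± 1.80 TPM in MCE1 and 46.7 ± 2.31 TPM in MCE2, against 87.9 ± 1.04 TPM in Control, and stood at 103 ± 9.09 TPM at Day8 (log2 fold changes -0.89, -0.90 and 0.22). Atp6v1h, the regulatory H subunit, had 90.1 ± 7.48 TPM in MCE1, against 113 ± 7.75 TPM in Control (-0.32, not called with median-ratio scaling, -0.21), and was not called at Day8.

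**Figure D2:**
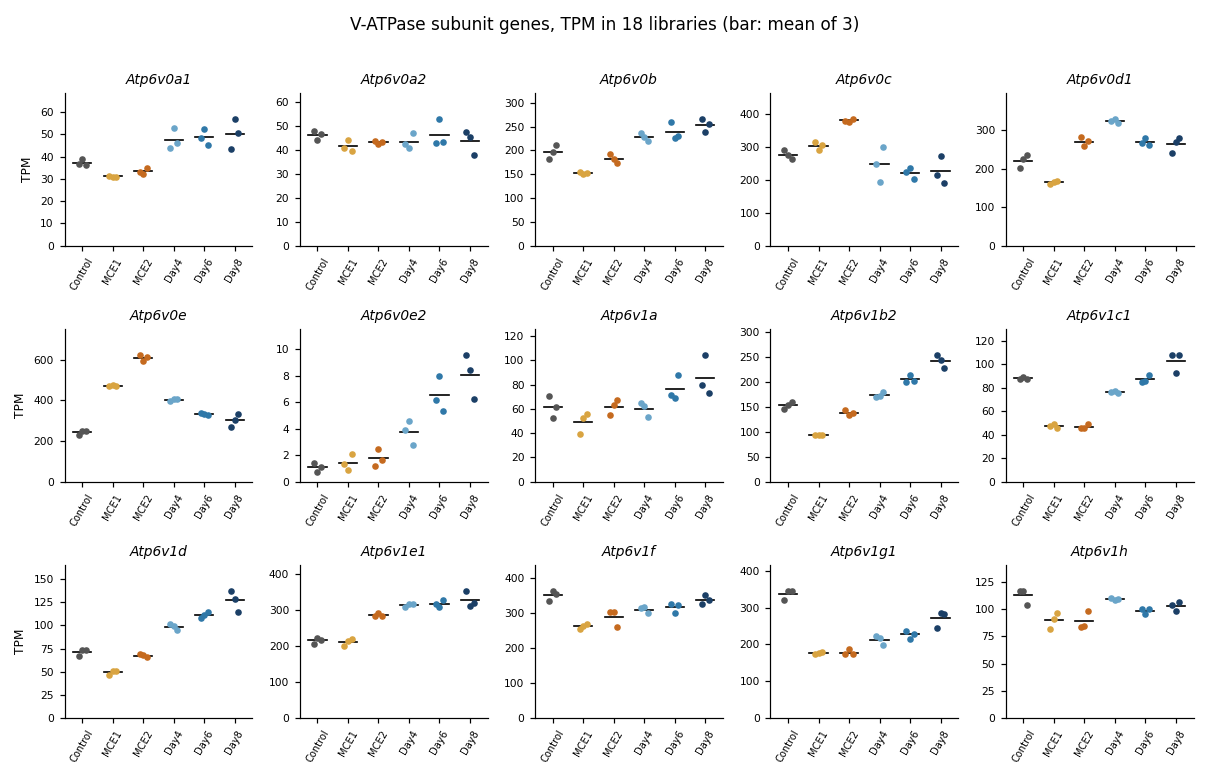
TPM (vertical axis, linear, from 0) of 15 V-ATPase subunit genes in each of the 18 libraries, with groups in the order of the time course and a bar at the mean of 3. Atp6v0e peaks in MCE2 at 609.9 TPM, whereas Atp6v1b2 and Atp6v1d are lowest in MCE1 and highest at Day8.

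The low members and those under the minimum are mostly tissue-restricted pump subunits. Exceptions are the lysosomal membrane gene Lamp2 and the factor gene Mitf, at 2.03 to 9.32 TPM. Atp6v0d2, Atp6v1b1, Atp6v1e2 and Atp6v1g3 were listed at 0 in all 18 libraries. Atp6v1c2 reached 1.13 TPM in 1 Day8 library and Atp6v1fnb, a gene named for its place beside Atp6v1f, reached 0.303 TPM. Just inside the minimum were Atp6v0a4 (3 libraries at or above it, up to 3.97 TPM), Atp6v1g2 (12 libraries, up to 3.54 TPM), Atp6v0e2 and Lamp2 (16 libraries each, up to 9.59 and 4.52 TPM). Atp6v1g2 had 0, 0.727 and 1.46 TPM at Day8, against 1.78, 3.54 and 1.002 TPM in Control, and its call (-0.86) was lost with median-ratio scaling (-0.77) and without any 1 of Control replicate 1, Control replicate 2, Day8 replicate 1 and Day8 replicate 2 (-0.90, -0.54, -0.51, -0.90 in that order).

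At Day8 most hydrolase genes stood above Control, while membrane genes were mixed. Of the 4 membrane genes, 0 rose and 2 fell in MCE1, and 1 rose and 2 fell at Day8. Of the 11 hydrolases and activators, 3 rose and 6 fell in MCE1, 8 and 2 at Day4, and 9 and 2 at Day8. The shares of all genes were 22.0% and 29.4% in MCE1, 29.7% and 39.3% at Day4 and 31.7% and 39.7% at Day8. The step from MCE2 to Day4 held 9 rises and no fall among the 11, beside 29.6% and 22.0% of all genes. Their summed level was 2365 ± 68.7 TPM in MCE1, 3852 ± 86.2 TPM at Day4 and 3582 ± 145 TPM at Day8, against 2509 ± 136 TPM in Control (SD, n = 3 each), of which Psap and Ctsd were the largest parts.

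Lamp1, a heavily glycosylated protein that lines the lysosomal membrane, had 583, 597 and 598 TPM in MCE1 and 720.3, 807 and 761 TPM at Day8, against 1126, 1172 and 1175 TPM in Control. Both later groups lay below Control without overlap (log2 fold change -0.96, SE 0.0441, adjusted p = 3.38e-11 in MCE1 and -0.60, SE 0.0441, adjusted p = 3.93e-09 at Day8), and Lamp1 was lower than Control in all 5 comparisons. Mcoln1, a calcium channel of the lysosome, averaged 39.0 ± 0.644 TPM in MCE1 and 54.5 ± 4.63 TPM at Day8, against 51.4 ± 6.77 TPM in Control, with a call in MCE1 (-0.38) and none at Day8 unless the libraries were rescaled (0.22 with median-ratio scaling, adjusted p = 0.0226). Lamp2 was listed at 0.832 to 4.52 TPM over the 18 libraries, with 0.893, 1.06 and 0.832 TPM at Day8, against 1.62, 2.08 and 2.50 TPM in Control (log2 fold change -0.66, adjusted p = 0.00858). These values lie near the minimum of 1 TPM, and whether they are sound estimates was not tested. Cd63, a tetraspanin of late endosomes and secreted vesicles, was listed at 52.0, 46.6 and 60.5 TPM at Day6 and 59.9, 48.0 and 35.5 TPM at Day8, against 0, 5.12 and 2.26 TPM in Control, without overlap (log2 fold change 4.31, SE 1.16, adjusted p = 0.00386 at Day6 and 4.14, SE 1.16, adjusted p = 0.00491 at Day8). Its value at 0 in Control replicate 1 has a counterpart at Day4, where the libraries held 0, 18.7 and 37.6 TPM. The Day4 difference (1.75) was not called, but reached 3.35 without Day4 replicate 1, and whether the zeros are failed estimates was not tested.

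Among the hydrolases, the lipid and sugar enzymes Lipa and Neu1 had their lowest mean in MCE1 and their highest at Day8. Lipa, the acid lipase that splits cholesteryl esters and triglycerides in lysosomes, had 129.6, 159.8 and 137 TPM at Day8, against 46.9, 50.3 and 49.2 TPM in Control, without overlap (log2 fold change 1.52, SE 0.0769, adjusted p = 3.62e-11). Its means over the course were 48.8 TPM in Control, 39.3 in MCE1, 46.8 in MCE2, 79.6 at Day4, 116 at Day6 and 142 at Day8. Neu1, a sialidase, had 10.6, 11.2 and 11.9 TPM in MCE1 and 51.2, 51.2 and 53.5 TPM at Day8, against 17.7, 18.2 and 20.1 TPM in Control, so it fell and then rose without overlap (log2 fold change -0.68, SE 0.0735, adjusted p = 9.32e-07 in MCE1 and 1.43, SE 0.0735, adjusted p = 4.24e-11 at Day8). Ctsa encodes the protective protein that binds and stabilises Neu1. It had 25.4, 62.5 and 39.3 TPM at Day8, against 1.52, 3.999 and 11.6 TPM in Control (log2 fold change 2.91, SE 0.488, adjusted p = 6.23e-05), a wide spread within both groups. Control replicate 3 was the highest Control value of Ctsa, and without it the differences in MCE1 and MCE2 were called as well (1.19 and 1.76, against 0.58 and 1.15 with it). The span of Ctsa overlaps Pltp over 18.6% and Neurl2 over 8.88%, and reads of overlapping genes cannot be told apart without strand.

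Gla and Hexa, which trim galactose and hexosamine from glycolipids, both fell early and parted later. Gla had 21.6, 30.1 and 24.3 TPM at Day8, against 45.2, 51.5 and 53.1 TPM in Control (log2 fold change -0.96, SE 0.0950, adjusted p = 1.56e-07), and was lower than Control in all 5 comparisons. Hexa had 209, 221 and 220.1 TPM at Day4, against 128, 145 and 154 TPM in Control (log2 fold change 0.61, SE 0.0588, adjusted p = 1.49e-07), and 193 ± 5.43 TPM at Day8. Earlier it had 119, 117 and 126 TPM in MCE1 and 112, 115 and 106 TPM in MCE2, below the Control libraries (log2 fold changes -0.23 and -0.35), calls that median-ratio scaling ended (-0.12 and -0.15). Psap, the precursor of the saposins that present lipids to these enzymes, was the most abundant member from MCE1 on. Psap peaked at Day4 with 1842, 1954 and 1977 TPM, against 720.0, 764 and 829 TPM in Control, and every Day4 library stood above every Day6 and Day8 library (log2 fold change 1.32, SE 0.0709, adjusted p = 1.03e-10 at Day4 and 0.86 at Day8). Its small rise in MCE1 (0.20) was lost with quantile normalization (0.11) and without Control replicate 1, Control replicate 2, MCE1 replicate 1 and MCE1 replicate 3 (0.15, 0.19, 0.20, 0.18 in that order).

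The cathepsins, the main lysosomal proteases, showed 3 kinds of course. Ctsz and Ctsd ended high: Ctsz had 240.4, 220.3 and 219.6 TPM at Day8, against 102, 104 and 107 TPM in Control (log2 fold change 1.11, SE 0.0426, adjusted p = 1.09e-12). The aspartic protease Ctsd had 911, 868 and 874 TPM at Day8, against 642, 691 and 685 TPM in Control (0.39, SE 0.0457, adjusted p = 1.01e-06). Ctsk peaked at Day4, with 78.8, 82.2 and 76.1 TPM, against 36.5, 42.4 and 46.8 TPM in Control (log2 fold change 0.91, SE 0.0790, adjusted p = 4.13e-08), after a low in MCE2 of 32.7, 31.2 and 31.2 TPM, and fell in the last step by 0.40 on the log2 scale. Ctsl ended low. It had 118, 118 and 115 TPM in MCE2 and 246, 258 and 248 TPM at Day8, against 377, 382 and 403 TPM in Control, all without overlap (log2 fold change -1.72, SE 0.0434, adjusted p = 1.66e-14 in MCE2 and -0.62, SE 0.0434, adjusted p = 2.02e-09 at Day8). Ctsb, with 204 ± 6.90 TPM in MCE1 and 306 ± 8.06 TPM at Day8, against 267 ± 14.7 TPM in Control, fell in MCE1 (-0.39), while its small difference at Day8 (0.20) was lost with quantile normalization (0.07).

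**Figure D3:**
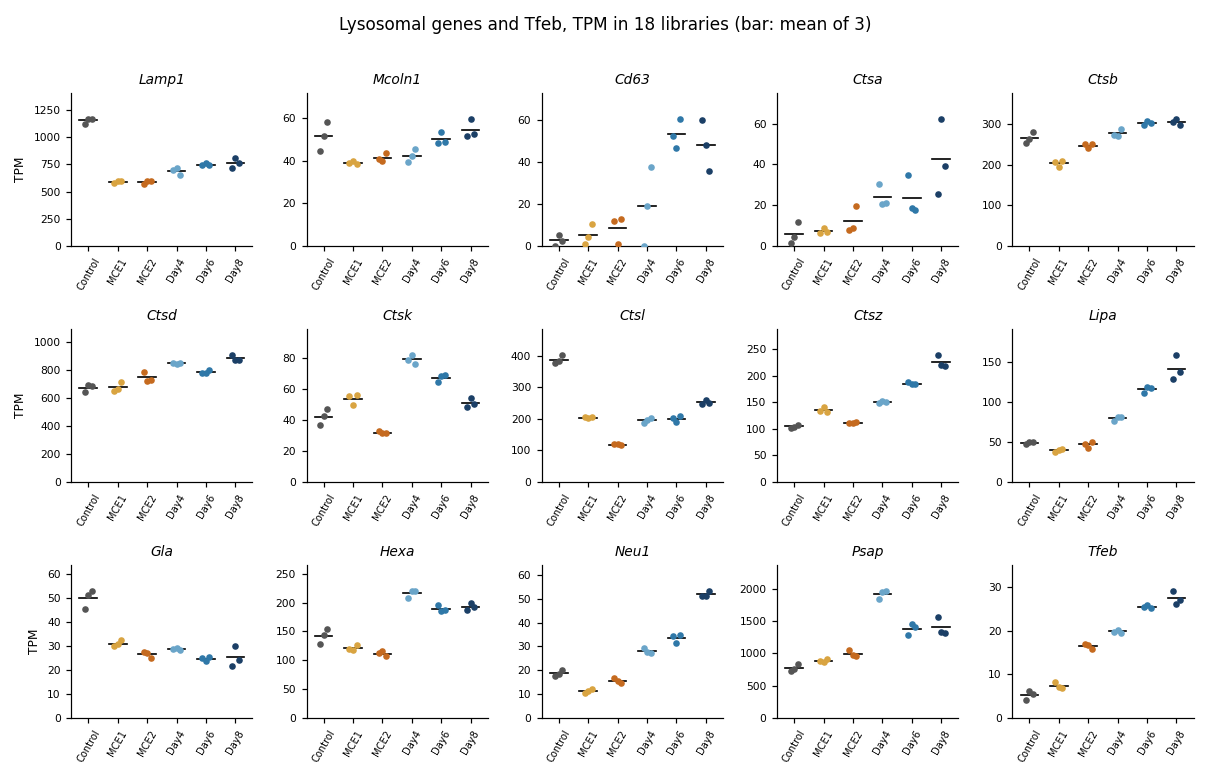
TPM (vertical axis, linear, from 0) of Lamp1, Mcoln1, Cd63, the 11 hydrolases and activators and Tfeb in each of the 18 libraries, with groups in the order of the time course and a bar at the mean of 3. Lamp1 and Ctsl stay under their Control values throughout, Psap peaks at Day4 (1924 TPM), and Lipa, Neu1, Ctsz and Tfeb are highest at Day8.

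The 3 MiT factor genes differed in course. Tfeb had 16.9, 16.7 and 15.7 TPM in MCE2 and 29.2, 26.0 and 27.1 TPM at Day8, against 4.02, 6.06 and 5.49 TPM in Control, without overlap (log2 fold change 1.51, SE 0.107, adjusted p = 4.53e-09 in MCE2 and 2.21, SE 0.107, adjusted p = 2.1e-11 at Day8). It was higher in all 5 comparisons with Control, and its largest step was from MCE1 to MCE2 (1.06). Mitf was rarer. It had 2.03, 2.34 and 2.34 TPM in MCE2 and 6.56, 9.32 and 7.72 TPM at Day8, against 3.96, 5.35 and 5.07 TPM in Control, below Control at first and above it later (log2 fold change -0.83, SE 0.128, adjusted p = 3.04e-05 in MCE2 and 0.61, SE 0.128, adjusted p = 0.000476 at Day8). Tfe3 was the most abundant of the 3 in Control but scattered within groups, with 43.0, 24.3 and 53.2 TPM in Control, 48.1, 27.6 and 48.1 TPM in MCE1 and 29.0, 44.6 and 22.8 TPM at Day8. Among the comparisons with Control it was called only at Day6 (-0.76), and that call was lost with median-ratio scaling (-0.61) and without Control replicate 1, Control replicate 3, Day6 replicate 2 and Day6 replicate 3 (-0.68, -0.53, -0.77, -0.56 in that order). Activity of these factors depends on their entry into the nucleus, which RNA levels do not show.

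Autophagy genes split by role, with the mitochondrial receptors and Map1lc3a far above Control at Day8. Of the 14, 4 rose and 7 fell in MCE1 and 6 rose and 3 fell at Day8, beside 22.0% and 29.4% of all genes in MCE1 and 31.7% and 39.7% at Day8. Bnip3, which sits in the outer mitochondrial membrane and recruits LC3, had the largest rise of all members. It had 113, 119 and 118 TPM in MCE1, 257, 284 and 299 TPM at Day4 and 1087, 1139 and 1129.8 TPM at Day8, against 34.4, 33.2 and 33.1 TPM in Control. None of these groups overlapped, and the log2 fold change was 1.76, SE 0.126, adjusted p = 8.45e-09 in MCE1, 3.02 at Day4 and 5.02, SE 0.126, adjusted p = 8.7e-15 at Day8. MCE2 was the uneven group, with 89.8, 105 and 150.3 TPM. By mean TPM the most abundant members at Day8 were Psap (1407) and Bnip3 (1119), while in Control they were Lamp1 (1158) and Psap (771). Bnip3l, the related receptor also called NIX, had 160.4, 181 and 172 TPM at Day8, against 66.2, 63.2 and 67.9 TPM in Control (log2 fold change 1.37, SE 0.0784, adjusted p = 1.77e-10), and was higher in all 5 comparisons.

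Sqstm1, the receptor p62 that binds ubiquitin and LC3, went the other way early. It had 226, 227 and 238 TPM in MCE1, against 553, 578 and 593 TPM in Control, without overlap (log2 fold change -1.32, SE 0.0487, adjusted p = 3.14e-12), the largest fall in MCE1 after Atp6v0a4. Its means then came back, with 364 TPM in MCE2, 450.3 at Day4, 401 at Day6 and 548 at Day8. At Day8 Sqstm1 had 572, 537 and 534 TPM and was not called against Control (-0.07, adjusted p = 0.213), but was called lower with quantile normalization (-0.21). Unlike Bnip3, it thus had its lowest mean in MCE1 and its highest in Control.

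All 4 LC3 and GABARAP genes fell in MCE1 (median log2 fold change -0.45), Map1lc3a with a call that median-ratio scaling ended (-0.17), and all 4 rose between MCE2 and Day4. Of all genes, 29.4% fell in MCE1 and 29.6% rose between MCE2 and Day4. Gabarap, the most abundant, had 333, 325 and 350.0 TPM in MCE1 and 668, 695 and 705 TPM at Day8, against 630.3, 679 and 673 TPM in Control. MCE1 lay wholly below Control (-0.97, SE 0.0437, adjusted p = 2.69e-11), whereas the Day8 difference was not called (0.06, or 0.19 and called with median-ratio scaling). Map1lc3b had 64.3, 64.6 and 68.3 TPM in MCE1 and 82.1, 94.5 and 88.3 TPM at Day8, against 94.7, 104 and 106 TPM in Control (-0.62, SE 0.0575, adjusted p = 1.71e-07 in MCE1). Its Day8 value (-0.20) was not called with median-ratio scaling (-0.07) or with only the libraries compared. Map1lc3a rose instead: it had 305, 270.3 and 289 TPM at Day8, against 99.6, 101 and 101 TPM in Control, without overlap (log2 fold change 1.51, SE 0.0691, adjusted p = 1e-11). The ratio of Map1lc3a to Map1lc3b within a library was 3.71, 2.86 and 3.27 at Day8, against 1.05, 0.966 and 0.951 in Control, so the LC3 genes changed unequally. Gabarapl1 had 118, 112 and 114 TPM in MCE1 and 235, 233 and 241 TPM at Day8, against 131, 144 and 146 TPM in Control (log2 fold change -0.29, SE 0.0502, adjusted p = 0.000155 in MCE1 and 0.75, SE 0.0502, adjusted p = 1.25e-09 at Day8).

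Among the genes that start autophagy, Ulk1 changed most at Day8. Ulk1, the kinase that starts the process, had 59.5, 52.4 and 47.2 TPM at Day8, against 14.3, 22.8 and 23.7 TPM in Control and 21.7, 20.7 and 23.6 TPM at Day6. Day8 lay above every other library, and the log2 fold change was 1.37, SE 0.184, adjusted p = 5.69e-06 against Control and 1.23, SE 0.184, adjusted p = 0.000234 against Day6. At no earlier stage was Ulk1 called against Control, although it was at Day4 without Control replicate 3 (0.50) or Day4 replicate 3 (0.58) or after rescaling (0.52 with median ratios and 0.58 with quantiles), and likewise in MCE2 after rescaling (0.47 and 0.50). Becn1, a subunit of the lipid kinase complex, averaged 94.6 ± 8.06 TPM at Day8, against 71.0 ± 1.77 TPM in Control (log2 fold change 0.40, SE 0.0898, adjusted p = 0.000775), and was higher in all 5 comparisons with Control, the MCE2 call being lost without MCE2 replicate 2 (0.22) or 3 (0.23). The lipid-binding Wipi1 averaged 80.8 ± 4.89 TPM in MCE2, against 106 ± 6.03 TPM in Control (log2 fold change -0.39, SE 0.0711, adjusted p = 0.000185), and its smaller Day8 difference (-0.20) was lost with median-ratio scaling (-0.06) and without Control replicate 2, Control replicate 3, Day8 replicate 1 and Day8 replicate 3 (-0.19, -0.16, -0.15, -0.15 in that order).

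The conjugation system couples Atg12 to Atg5, with Atg7 as the activating enzyme and Atg16l1 as the scaffold. Atg12 had 69.4, 74.3 and 68.9 TPM in MCE1, against 43.6, 42.9 and 45.8 TPM in Control, without overlap (log2 fold change 0.67, SE 0.0797, adjusted p = 2.88e-06), and averaged 48.7 ± 1.37 TPM at Day8. Every Day8 library lay above every Control library, but the difference (0.14) was called only after rescaling (0.27 with median ratios and 0.27 with quantiles). Atg5 had 19.4, 27.9 and 23.6 TPM at Day8, against 35.2, 32.8 and 33.9 TPM in Control (log2 fold change -0.52, SE 0.127, adjusted p = 0.00171), and was lower in all 5 comparisons, though its calls in MCE1 (-0.38) and MCE2 (-0.36) were lost with median-ratio scaling (-0.27 and -0.17), without Control replicate 1 (-0.36 and -0.33) and without the replicate 1 of their own group (-0.25 and -0.30). Its Day6 call was lost with quantile normalization (-0.28). Atg7 averaged 42.3 ± 10.5 TPM at Day8 and 35.8 ± 1.71 TPM in Control, and Atg16l1 23.5 ± 4.46 TPM at Day8 and 18.8 ± 0.957 TPM in Control. Neither was called in any of the 9 comparisons.

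**Figure D4:**
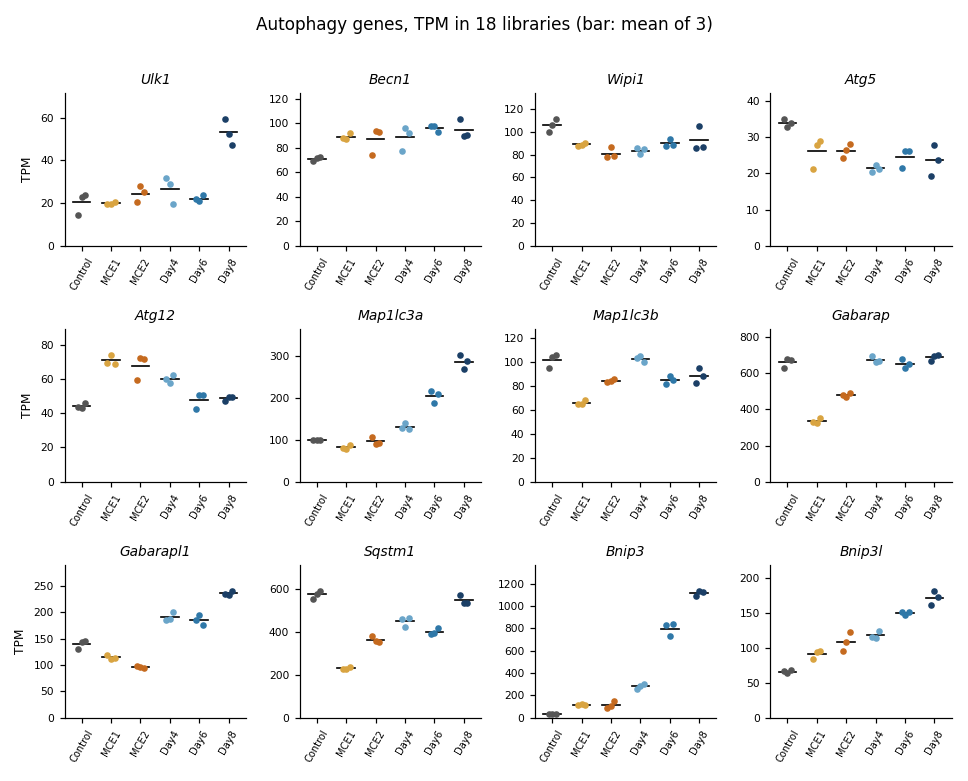
TPM (vertical axis, linear, from 0) of 12 autophagy genes in each of the 18 libraries, with groups in the order of the time course and a bar at the mean of 3. Bnip3 reaches a mean of 1119 TPM at Day8, Ulk1 stands apart at Day8 only, and Gabarap and Sqstm1 are lowest in MCE1.

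Genes of the same pathways that the member list leaves out are counted here beside the shares that rose and fell, 22.0% and 29.4% of all genes in MCE1 and 31.7% and 39.7% at Day8. Of 46 other hydrolases and activators tested (48 listed), 10 rose and 24 fell in MCE1 and 25 rose and 14 fell at Day8 (medians -0.36 and 0.36, beside -0.06 and -0.11 for all genes). Gm2a, the activator that works with Hexa, averaged 37.5 ± 2.60 TPM at Day8, against 7.07 ± 0.240 TPM in Control (log2 fold change 2.25, adjusted p = 4.64e-12), and the protease gene Ctsf 18.3 ± 1.97 TPM against 2.84 ± 0.647 TPM. Of 38 other autophagy genes, 6 rose and 12 fell in MCE1 (median -0.09), the falls close to the share of all genes, and 18 rose and 6 fell at Day8 (median 0.20). Pink1, the kinase that marks damaged mitochondria, averaged 91.9 ± 3.93 TPM at Day8, against 21.8 ± 2.59 TPM in Control (2.03, adjusted p = 4.36e-12).

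Further lists stand beside the same shares, 22.0% and 29.4% of all genes in MCE1 and 31.7% and 39.7% at Day8. Of 11 pump genes outside the Atp6v0 and Atp6v1 names, 2 rose and 3 fell in MCE1 and 0 rose and 5 fell at Day8. Tcirg1, the remaining a subunit gene, averaged 48.6 ± 1.30 TPM at Day8, against 68.6 ± 13.7 TPM in Control (-0.47, adjusted p = 0.00129). The accessory subunit gene Atp6ap1 averaged 196 ± 3.69 TPM at Day8, against 258 ± 9.64 TPM in Control (-0.39, adjusted p = 5.02e-07), and Atp6ap2 fell to 64.9 ± 3.58 TPM in MCE1, against 142 ± 3.55 TPM in Control (-1.12, adjusted p = 1e-10). Other membrane proteins and sorting receptors were mixed, with 5 of 28 up and 10 down in MCE1 and 9 up and 8 down at Day8. Sort1, a sorting receptor, averaged 52.8 ± 2.55 TPM at Day8, against 2.32 ± 0.338 TPM in Control (4.02, adjusted p = 4.65e-12). Nutrient-sensing genes of the lysosome had 7 of 28 up and 7 down in MCE1 and 10 up and 11 down at Day8, close to those shares. These lists were chosen with the members' results known and carry no test of their own, and the part of the change in cell state in any of these differences was not tested.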

How the data were processed

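RNA-seq of 3T3-L1 cells was analysed from the authors' deposited TPM, 1 table per library. Per the submitters' processing notes, FastQC, cutadapt, HISAT2, StringTie and the mm9 build were used, and versions, the gene annotation and strand settings are not given in the sources used here. The labels name no directional form of the library kit. The deposited TPM summed to 869497 to 880273 per library. Each table listed 25209 genes, and 12 placed at another locus in Control replicate 1 were left out. The 12695 genes that reached the minimum were fitted on log2(TPM + 1) without rescaling, with limma 3.58.1 in R 4.3.3 (1 mean per group, trend and robust moderation, 12 residual and a median of 3.18 prior degrees of freedom), 2-sided, with Benjamini-Hochberg adjustment over all genes tested. The fit was tested on simulated data. Tables, promoter searches and plots used Python 3.11.15, pandas 2.3.3, numpy 2.4.6 and matplotlib 3.10.9. Pearson's r of log2(TPM + 1) was 0.976 to 0.991 within groups and 0.811 to 0.976 between them, and no libraries were identical.

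Groups came from the sample titles. The members and gene lists were chosen with earlier results of these data known. Any member may be named. Of other pathway genes, up to 3 higher and 3 lower with the largest change per list and comparison may be named, and Tcirg1, Atp6ap1 and Atp6ap2 always. Alternatives were a pseudocount of 0.1, no filter or one of 5 TPM, median-ratio scaling, quantile normalization, a replicate block, array weights, only the libraries compared, a minimum size of 1 on the log2 scale and leaving out each replicate. Of the members, 14 share part of their span with another listed gene. Promoter sequences are RefSeq's on GRCm38.p6 and gene positions those of the files on mm9, and no coordinate was converted.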

Additional observations from a re-analysis of the deposited data

How the results depend on the processing

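Totals of called members moved by less than 1.5 times under the other pseudocount, filters, scalings and weights, but counts in 1 direction moved more. With median-ratio scaling 11 members fell in MCE2, against 20, 7 at Day6, against 13, 7 at Day8, against 11, and 4 in Day4 against MCE2, where 2 had. Array weights gave 8 falls in MCE2 against MCE1, where 5 had. With a further condition on size, a log2 fold change of 1 or more, the calls came to 3 members in MCE1, 5 in MCE2, 7 at Day4, 9 at Day6 and 12 at Day8 against Control, 1 for MCE2 against MCE1, 2 for Day4 against MCE2, 1 for Day6 against Day4 and 1 for Day8 against Day6. Fitting only the libraries compared, and so fewer samples, moved counts both ways. It gave 7 falls at Day8 against Control, where 11 had, and 4 in Day4 against MCE2, where 2 had. In Day8 against Day6 it called 9 members (8 higher), against 15 (14 higher), and 1072 of all genes, against 2761. In MCE1 against Control it called 37 members, against 35, and 7434 of all genes, against 6526. Leaving out 1 replicate gave 31 to 35 calls in MCE1, 29 to 31 in MCE2, 33 to 36 at Day4, 34 to 38 at Day6 and 35 to 38 at Day8 against Control, 18 to 21 for MCE2 against MCE1, 28 to 30 for Day4 against MCE2, 12 to 15 for Day6 against Day4, 12 to 16 for Day8 against Day6 and 44 to 46 by the F test.

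Among members called in either fit, directions turned for Atp6v0c at Day8 when summed with Atp6v0c-ps2 (0.13), for Atp6v1b2 in MCE2 (0.054) and Atp6v1f at Day6 (0.00130) with median-ratio scaling, and for Ctsd in MCE1 (-0.13) and Gabarap at Day4 (-0.11) with quantile normalization. The cause was not tested.

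Replicate numbers did not pair libraries: deviations of same-numbered libraries correlated at -0.0742 to 0.0927, and 4 of 18 libraries correlated best with their own number. With the replicate number as a block, 35, 31, 35, 37 and 38 members were called against Control in MCE1, MCE2, Day4, Day6 and Day8, 21, 29, 18 and 14 in the successive steps, and 45 by the F test. Groups of 3 are too small for an outlier test. Counting error is not known, as TPM keep no depth, so the precision of low members such as Lamp2, Mitf and Atp6v1g2 is not known.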

Other observations

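Among pathway genes that are no members, a few of those with the largest changes are given as values. Manba, the beta-mannosidase, averaged 14.8 ± 1.15 TPM at Day8, against 2.52 ± 0.379 TPM in Control (log2 fold change 2.16, adjusted p = 4.93e-11), and Scarb2, a lysosomal membrane protein and sorting receptor, 109 ± 8.22 TPM at Day8, against 40.4 ± 1.95 TPM in Control (log2 fold change 1.40). Foxo1, a factor known to act on autophagy genes, averaged 35.4 ± 0.648 TPM at Day8, against 8.27 ± 0.322 TPM in Control (log2 fold change 1.97, adjusted p = 1.71e-12). On the lower side, the membrane transporter gene Mfsd1 averaged 61.1 ± 3.54 TPM at Day8, against 157 ± 9.69 TPM in Control (log2 fold change -1.34). In MCE1 Fnip1, a partner of folliculin, fell to 16.6 ± 0.703 TPM, against 40.6 ± 3.88 TPM in Control (log2 fold change -1.24, adjusted p = 1.3e-08), and Rragc, a GTPase that helps bring mTORC1 to the lysosome, to 80.1 ± 2.47 TPM, against 158 ± 3.47 TPM in Control (log2 fold change -0.97).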
